A study of Mus musculus with 8 samples.

Results

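Replication initiation sites (ISs) that were called only after depletion of MCM6 are described here: the autosomal ISs of the Rif1KO_shMcm6 list that overlapped, by at least 1 bp, no IS of the WT, Rif1KO or Rif1KO_shLacZ list. They are named shMcm6-only ISs below. There were 27013 of them among 113626 autosomal Rif1KO_shMcm6 ISs (23.8%, 95% Wilson interval 23.5% to 24.0%) and among 271683 autosomal entries in the 4 lists together. They were chosen by peak calls made on the same libraries as the read densities below, so their densities and fold changes in shMcm6 against shLacZ are descriptions and carry no test. The libraries came from CH12, a B cell lymphoma line of the mouse, cultured with IL4, CD40 and TGF beta stimulation. WT cells carried no knockout, Rif1KO cells lacked RIF1, and both hairpin groups lacked RIF1 as well. Rif1KO_shLacZ cells expressed a control hairpin against bacterial LacZ and Rif1KO_shMcm6 cells a hairpin against Mcm6, both delivered by lentivirus and followed by puromycin selection. Each group had 2 libraries, from separately thawed vials of the line, pooled to 1 deposited value per condition. MCM6 depletion was therefore seen on a RIF1-deficient background in a single cell line, and these data do not measure the level of MCM6.

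SNS-seq sequences short nascent strands, which carry an RNA primer at the 5′ end that protects them from lambda exonuclease, and so marks where replication forks started. MCM6 is a subunit of the MCM2-7 complex, which is loaded on DNA in G1 phase and becomes the core of the replicative helicase. MCM complexes are loaded in excess, and those that do not fire in a normal S phase are known as dormant origins. In mammals ISs are known to lie often near G-quadruplex (G4) motifs, short runs of G that can fold into a 4-stranded structure, and initiation is dense around CpG-rich promoters.

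The DNA of the shMcm6-only ISs that gained the most reads was repetitive and rich in purines. The following stretch is printed because it shows the kind of tract that went with gain in this set. It is read 5′ to 3′ on the plus strand of mm9. The longest unbroken run of A and G is in capitals, with 40 flanking bases on each side in lower case.
Epha3 intron, chr16:63833431-63833650: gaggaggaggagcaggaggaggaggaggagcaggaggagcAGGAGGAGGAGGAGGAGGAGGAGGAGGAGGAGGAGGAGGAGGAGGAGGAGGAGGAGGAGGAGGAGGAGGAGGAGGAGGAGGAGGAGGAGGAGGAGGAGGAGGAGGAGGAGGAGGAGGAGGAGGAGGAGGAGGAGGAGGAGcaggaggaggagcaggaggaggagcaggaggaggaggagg
The capitals span 140 bases, and the stretch is almost wholly GGA triplets. For contrast, an shMcm6-only IS that lost reads, beside Il12a, is shown with its first G4 motif in capitals on the plus strand.
near Il12a, chr3:68493594-68493663: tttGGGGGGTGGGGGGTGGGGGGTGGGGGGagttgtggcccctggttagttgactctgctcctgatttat
Its motif of 27 bases lies 233 bp on the 5′ side of the centre of the IS, at the edge of the called region.

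The 6 shMcm6-only ISs with the highest fold change, among those at or above the median density of the set, all held a purine tract of at least 30 bases, and 5 of them held 4 or more GGA triplets in a row. The IS in an intron of Tbc1d5, a GTPase-activating protein of endosomal traffic, had 84 shLacZ and 484 shMcm6 reads. Its density was 1.995 against 4.36 log2 RPM (RPM being reads scaled to a total of 1000000 in ISs), a log2 difference of 2.36 ± 0.17 (counting SE of the pooled reads). An IS in an intron of Epha3, an ephrin receptor, at chr16:63833382-63834317 had 80 and 439 reads. Its log2 difference was 2.29 ± 0.18. Both were highly repetitive: of the 6-base words in the Epha3 IS 4.51% were distinct, and in the Tbc1d5 IS 5.57%, against a median of 84.1% over all shMcm6-only ISs. The intergenic IS 7609 bp from the start of Fcrl6, an Fc receptor-like gene, had 53 and 269 reads. Its log2 difference was 2.18 ± 0.22. The intergenic IS 4755 bp from the start of Nmi, which encodes an interferon-inducible partner of MYC family proteins, had 277 shLacZ and 1241 shMcm6 reads, a log2 difference of 1.9999 ± 0.0959. Ranked by log2 RPM and not per kilobase, it was also the densest shMcm6-only IS after MCM6 depletion, at 5.72 over a width of 1937 bp. The other 2 lay on chromosome 18, in an intron of Prdm6 (47 and 216 reads) and 165146 bp from the start of the desmosomal cadherin gene Dsc3 (96 and 451 reads). All 6 were more than 1 kb from any protein-coding transcription start site (TSS).

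Of the 6 with the lowest fold change none held a purine tract, 3 were promoter ISs and all 6 had a lower RPM after MCM6 depletion than with the control hairpin, although they were called only after it. The IS at the promoter of Hfm1, a meiotic DNA helicase, at chr5:107354926-107355472 overlapped annotated exon and UTR sequence and had 221 shLacZ and 137 shMcm6 reads. Its log2 difference was -0.85 ± 0.16. The promoter IS of Il12a, the p35 subunit of interleukin-12, at chr3:68493594-68494092 had 171 and 117 reads, a difference of -0.71 ± 0.17. The promoter IS of Pttg1ip at chr10:77046751-77047197 had 155 and 106 reads, a difference of -0.71 ± 0.18. The other 3 lay in an intron of Cacnb4, a calcium channel subunit gene (247 and 158 reads), 84440 bp from Myom2 (382 and 246 reads) and 65760 bp from Dtl (750 and 513 reads). Low complexity was found here too, with 12.8% distinct 6-base words in the IS near Dtl and 44.3% in that near Myom2, against 14.8% in the IS near Nmi. Among the 6 densest shMcm6-only ISs, the second, 25344 bp from Insig2 at chr1:123254510-123256283, also had no gain, with 1268 shLacZ and 1221 shMcm6 reads and a difference of -0.22 ± 0.06. The remaining 4 of the densest lay near Olfr1238 (303 and 820 reads), in an intron of St6galnac3 (260 and 759 reads), near Gm9932 (167 and 737 reads) and 888304 bp from Cdh10 (244 and 711 reads). The ISs in St6galnac3 and near Gm9932 held no purine tract of 30 bases, with log2 differences of 1.38 and 1.98, but both held 4 or more GGA triplets in a row. At these ISs a call in 1 list did not go with a gain of reads in every case.

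Over the whole set the gain was modest. The median shMcm6-only IS had 86 shLacZ reads (quartiles 70 and 111) and 118 shMcm6 reads (97 and 152), or 2.03 and 2.32 log2 RPM. The median log2 difference was 0.26, with quartiles at 0.06 and 0.49 and a range from -0.85 to 2.87, and the median lay between 0.22 and 0.29 on each of the 19 autosomes. At least 1.5-fold more RPM were found at 4882 of the 27013 (18.1%, interval 17.6% to 18.5%), where 4.82% of all 127312 autosomal ISs of the table reached that fold. They made up 79.6% of the 6134 ISs that did so. A 2-fold gain was reached at 1131 (4.19%), against 0.971% of all ISs of the table. At 5064 (18.7%) the difference was at or below 0, and 41 (0.152%) were at least 1.5-fold lower, against 1.49% of all ISs. Single ISs were also set against their own counting SE, at the confidence level used for the shares. At 17455 (64.6%) the difference could not be told from 0 by counting error. It lay above that range at 9055 (33.5%) and below it at 503 (1.86%). The intervals of shares treat ISs as independent, and the SEs treat reads as independent molecules, which PCR copies are not. Neither covers variation between replicates.

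**Figure D1:**
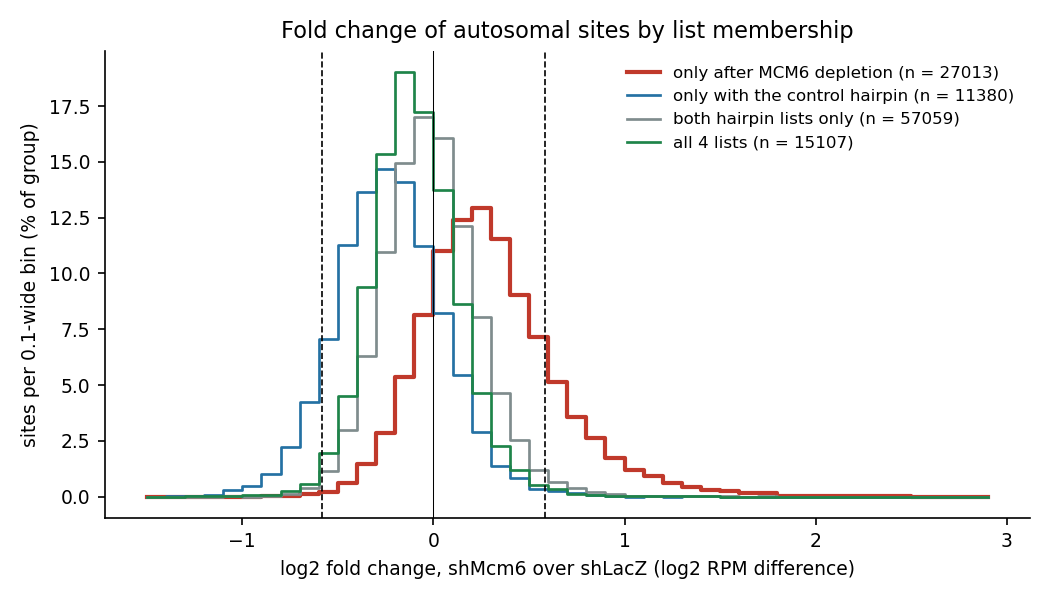
Log2 fold change (shMcm6 over shLacZ, log2 RPM difference, x axis) of autosomal ISs in bins of 0.1, as a percentage of each group (y axis), for ISs called only after MCM6 depletion, only with the control hairpin, in both hairpin lists only, and in all 4 lists. The dashed lines mark 1.5-fold in either direction. The red curve has its median at 0.26 and overlaps the other 3 widely, with 18.1% of its ISs beyond the upper line.

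ISs called only with the control hairpin were the mirror set. There were 11380, with a median log2 difference of -0.23, and 9.09% of them were at least 1.5-fold lower while 19.7% were at or above 0. ISs in both hairpin lists and neither other list (57059) had a median of -0.02, and the 15107 in all 4 lists a median of -0.11. With the median of the ISs in all 4 lists set to 0, the median of the shMcm6-only ISs was 0.36 and 26.0% were at least 1.5-fold higher, and the median of ISs in both hairpin lists turned from -0.02 to 0.08. As log2(RPM + 1), which shrinks differences at low density, 11.1% of the shMcm6-only ISs were at least 1.5-fold higher. On the centred scale 92.0% of the ISs past 1.5-fold in the table were higher, against 76.3% on the deposited scale. Per kilobase of IS, shMcm6-only ISs had a median of 10.6 RPM after MCM6 depletion and 8.75 RPM with the control hairpin, whereas those in all 4 lists had 13.9 and 14.9 RPM. They were also narrower, with a median width of 476 bp (quartiles 378 and 615) against 580 bp in both hairpin lists and 747 bp in all 4, on 19 of 19 autosomes, but wider than shLacZ-only ISs (425 bp), also on 19 of 19. At the edge of the rule, the 39 shMcm6-only ISs with an IS of another list within 100 bp had a median difference of 0.36, and the 18 ISs left out for an overlap of 100 bp or less had 0.25.

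The lists name the numbered peaks of each replicate that make up an IS. Missing numbers between the flanking listed shLacZ ISs were taken as peaks called in that replicate and not kept in the list, an inference from the names, since the peak files of single replicates were not used here. No number was missing in either shLacZ replicate around 3617 shMcm6-only ISs (13.4%, interval 13.0% to 13.8%). Their median log2 difference was 0.46, with medians of 72 shLacZ and 111 shMcm6 reads, and 2.82% were at or below 0. Numbers were missing in both replicates around 19031 (70.5%), where the median difference was 0.23 and 22.4% were at or below 0. A further 4342 (16.1%) lacked numbers in 1 replicate, with a median of 0.24. Where the missing peaks lay between the flanking ISs is not known from the lists. The highest peak numbers were 148713 and 153248 in the shLacZ replicates and 169793 and 175603 in the shMcm6 replicates, and reads in ISs were 21071351 and 23602750, so more peaks and more reads went with the condition that defines the set, and their part in the result was not tested.

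Pooled over all fold changes, purine tracts were more frequent in shMcm6-only ISs than in the other groups. A run of at least 30 bases of A and G on either strand was present in 7899 shMcm6-only ISs (29.2%, interval 28.7% to 29.8%). The share was 24.2% in ISs of both hairpin lists, 19.2% in all 4 lists and 18.2% in shLacZ-only ISs, and shMcm6-only ISs had the higher share on 19 of 19 autosomes in each comparison. Of 4786949 autosomal windows of 500 bp, 6.08% held such a tract. shMcm6-only ISs also had the highest share within each class of width: among ISs under 400 bp the shares were 27.2% (shMcm6-only), 19.3% (both hairpin lists), 15.2% (all 4) and 15.8% (shLacZ-only), and at 700 bp or more 37.8%, 30.05%, 20.1% and 24.9%. Runs of at least 4 GGA triplets were in 4.22% of shMcm6-only ISs, 2.80% in both hairpin lists, 2.59% in all 4 and 0.68% of 500-bp windows. GA repeated at least 10 times was in 5.47% of them and in 2.17% of windows. CA repeated at least 10 times, a repeat that alternates purine and pyrimidine, was in 4.66% of them and in 4.89% of windows. It was also more frequent than in shLacZ-only ISs (2.01%), both hairpin lists (3.55%) and all 4 lists (4.09%), on 19, 19 and 15 of 19 autosomes, and went from 2.45% of shMcm6-only ISs below 1-fold to 7.01% at 1.5 to 2-fold, with 2.03% above 3-fold. All motifs were searched on both strands.

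Within the shMcm6-only ISs the share with a purine tract rose with fold change. It was 17.2% (interval 16.1% to 18.2%) of the 5064 below 1-fold, 20.6% and 31.6% in the 2 classes between 1-fold and 1.5-fold, 53.0% at 1.5 to 2-fold and 72.4% (69.6% to 75.1%) of the 983 at 2 to 3-fold. The 148 above 3-fold had 67.6% (59.7% to 74.6%), an interval that overlaps the class below it. ISs at least 1.5-fold higher held a tract in 57.3% and the others in 23.0%, with the higher share on 19 of 19 autosomes. The share with GGA triplets went from 1.90% below 1-fold to 32.4% above 3-fold. Sequence complexity went the other way, from a median of 86.1% distinct 6-base words to 69.4%. Read from the other side, ISs with a tract had a median difference of 0.44 and 35.4% were at least 1.5-fold higher, against 0.21 and 10.9% of those without. Among the 1241 higher ISs with no missing control peak number in either replicate, 55.7% held a tract.

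ISs outside the set were compared in the same way. ISs in both hairpin lists that were at least 1.5-fold higher (893) held a tract in 71.7%, those that were lower (349) in 28.1% and the 55817 others in 23.5%. In shLacZ-only ISs, GGA triplets went with change in both directions. Of the 260 with at least 4 in a row, 3.85% were at least 1.5-fold higher and 18.1% lower. Of those without, 0.49% were higher and 8.88% lower. In the table of Rif1KO against WT, from other libraries that were not infected, ISs with a tract were at least 1.5-fold higher in 1.92% (interval 1.60% to 2.30%) and those without in 2.33% (2.18% to 2.50%), where 2.27% of all 38954 autosomal ISs were called higher and 2.69% lower. In that table the 884 higher ISs held a tract in 13.0%, the 1048 lower in 12.02% and the rest in 15.6%. Most of these calls lay on 3 chromosomes. Of the 884 higher ISs, 572 lay on chromosomes 15 and 16, which had median log2 differences of 0.16 and 0.33. On chromosome 10, with a median of -0.36, 22.2% of the ISs were lower, against at most 2.01% on any other autosome. Whether whole chromosomes or segments of them shifted was not tested. Without these 3 chromosomes the 297 higher ISs held a tract in 13.8% (interval 10.3% to 18.2%), the 423 lower in 9.69% and the rest in 15.7%. The study's alignment kept reads with a unique place in the genome, and how that bears on repeats was not tested.

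**Figure D2:**
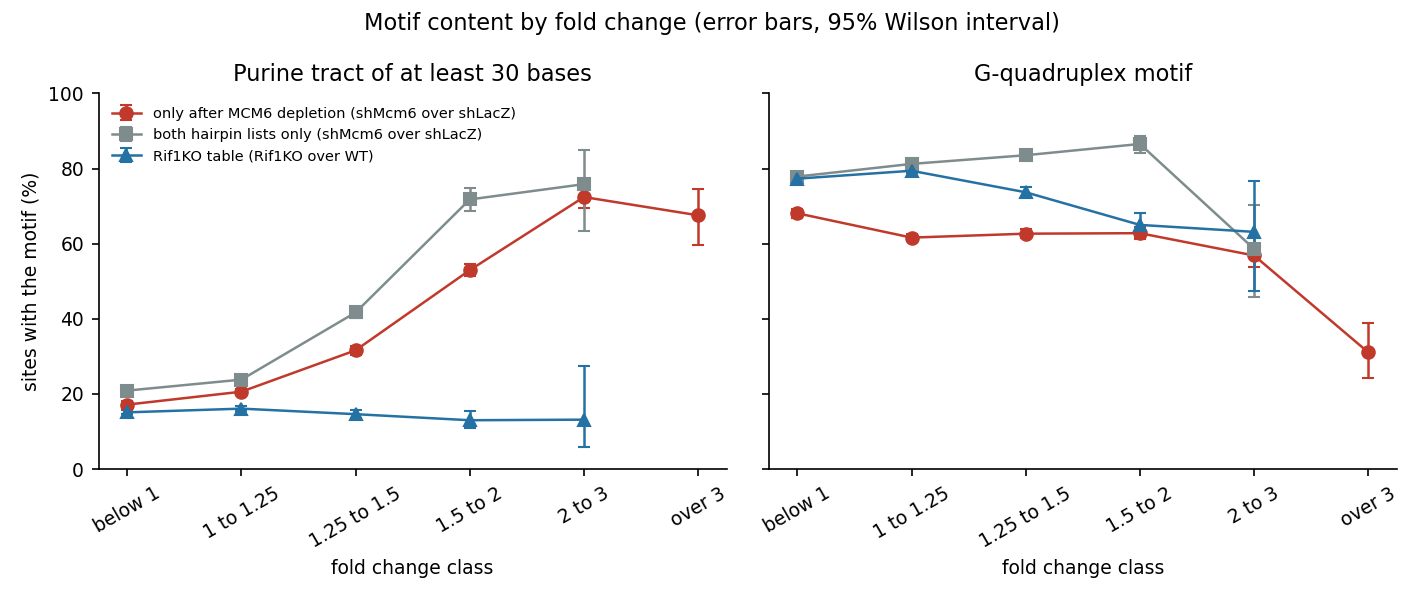
Percentage of ISs with a purine tract (left) or a G4 motif (right) in each class of fold change, with 95% Wilson intervals. Red circles and grey squares are ISs called only after MCM6 depletion and ISs in both hairpin lists only, by shMcm6 over shLacZ, and blue triangles the Rif1KO table by Rif1KO over WT; classes of under 20 ISs are left out. The red tract share goes from 17.2% to 72.4% and 67.6%, the blue one stays between 13.0% and 16.1%, and the red G4 share ends at 31.1%.

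G4 motifs were searched as 4 runs of at least 3 G with loops of 1 to 7 bases, on either strand. They were present in 62.9% of shMcm6-only ISs (interval 62.3% to 63.5%), 66.9% of shLacZ-only ISs, 79.6% in both hairpin lists, 84.0% in all 4 lists and 8.38% of 500-bp windows. The deficit held in each width class, for example 59.4% against 72.5% in both hairpin lists under 400 bp, and 76.9% against 86.9% at 700 bp or more. It depended on the window, however: in a fixed 500 bp around the centre the shares were 54.6% in shMcm6-only ISs, 60.0% in shLacZ-only ISs, 50.2% in both hairpin lists and 47.3% in all 4, so the order against the last 2 groups was turned. Within the set the G4 motif did not become more frequent with gain. It was in 68.1% of those below 1-fold, 62.8% at 1.5 to 2-fold, 56.9% at 2 to 3-fold and 31.1% (interval 24.2% to 38.9%) above 3-fold. In ISs of both hairpin lists it did so up to 2-fold, from 77.9% below 1-fold to 86.6% (84.1% to 88.7%) at 1.5 to 2-fold, with 58.6% (45.8% to 70.4%) of the 58 at 2 to 3-fold. A tract without a G4 motif was found in 1927 ISs, with a median difference of 0.48, and both in 5972, with 0.43. Those with a G4 motif alone (11024) had 0.18, and those with neither (8090) had 0.24.

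The side on which these motifs lay also changed with gain. Positions were taken from the centre of each IS and read 5′ to 3′ on the strand that carries the G runs or the purines, within 500 bp of the centre. In ISs of both hairpin lists the G4 motifs lay upstream: at 93.3% of motif-bearing ISs their mean position was on the 5′ side (interval 93.1% to 93.5%), with a median 230.5 bp from the centre over single motifs. Among shMcm6-only ISs the share was 86.6% (86.1% to 87.0%), lower on 19 of 19 autosomes. It was 94.1% below 1-fold, 91.5% and 86.5% in the 2 classes between 1-fold and 1.5-fold, 74.3% at 1.5 to 2-fold and 40.3% (36.9% to 43.8%) above 2-fold. The bin with the most G4 motifs was 100 to 200 bp on the 5′ side below 1-fold, at 48.2 motifs per 100 ISs, and 200 to 300 bp on the 3′ side above 2-fold, at 41.7. Purine tracts moved in the same way. Their mean position was on the 5′ side at 82.9% of tract-bearing ISs below 1-fold, at 47.7% at 1.5 to 2-fold and at 24.6% (22.0% to 27.5%) above 2-fold. The fullest bin for tracts above 2-fold was 100 to 200 bp on the 3′ side, with 34.8 per 100 ISs against 16.7 in the mirror bin.

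**Figure D3:**
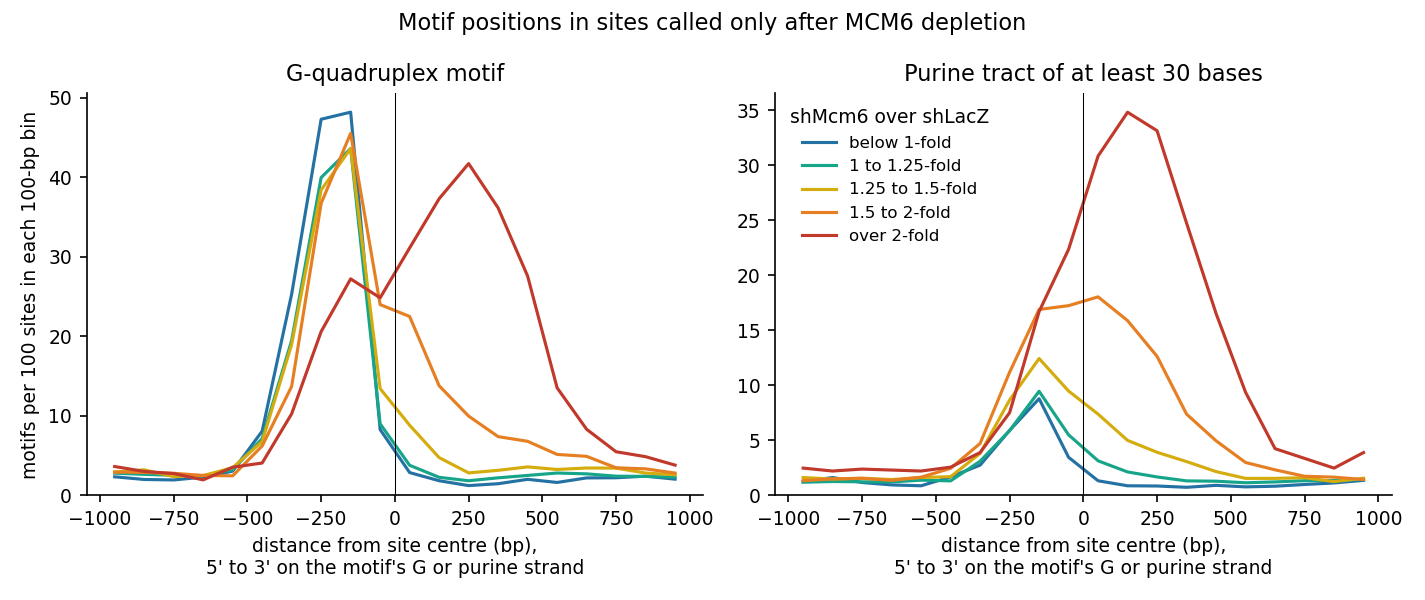
G4 motifs (left) and purine tracts (right) per 100 ISs in bins of 100 bp (y axis) against distance from the centre of the IS in bp (x axis), read 5′ to 3′ on the strand of the G or purine run, for ISs called only after MCM6 depletion in 5 classes of fold change. Lines join bin values. The 4 lower classes have their G4 peak on the 5′ side, and the class above 2-fold has it 200 to 300 bp on the 3′ side, at 41.7 per 100 ISs.

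The change of side was smaller where no purine tract was near. Among shMcm6-only ISs with no tract in the called region or within 500 bp of its centre, the G4 motif was on the 5′ side at 94.0% of motif-bearing ISs below 1-fold, 81.2% at 1.5 to 2-fold and 65.5% (interval 55.1% to 74.7%) of the 87 above 2-fold. Counted by IS it thus lay mostly upstream in each class. Counted as single motifs, 54.9% (47.2% to 62.3%) of 164 above 2-fold were on the 5′ side. When tracts were left out from the called region alone, the share of ISs above 2-fold was 40.3% of 191, but 136 of those 319 ISs then had a tract within 500 bp, on the 5′ side at 7.35% of them. With no tract within 500 bp and at least 80% distinct 6-base words, it was 94.4% below 1-fold and 62.2% (47.6% to 74.9%) of the 45 above 2-fold. Among ISs of middle width, at least 400 bp and under 600 bp, it was 90.9% under 1.5-fold and 73.0% at 1.5-fold or more. ISs of both hairpin lists behaved alike in direction, with 59.1% on the 5′ side at 1.5-fold or more and 93.9% under it, lower on 19 of 19 autosomes. In the Rif1KO against WT table the shares were 96.1% (94.5% to 97.3%) of the 746 motif-bearing ISs at least 1.5-fold higher and 89.9% (89.6% to 90.3%) of the rest, lower among the higher ISs on 2 of 19 autosomes. Without chromosomes 10, 15 and 16 they were 96.3% (93.1% to 98.0%) of 242 and 89.7% of the rest. Neighbouring motifs in an IS share its sequence, so these shares count ISs, while the bin values and medians of position count single motifs. The Il12a IS printed above is an example of the 5′ arrangement. The longest tract of the Epha3 IS, also printed above, lies 309 bp on the 5′ side of the centre of an IS that is repetitive throughout. The longest tract was on the 5′ side in 3 of the 4 high-fold ISs where its side was taken. Most tract-bearing ISs above 2-fold had their mean tract position on the 3′ side, but that used tracts within 500 bp of the centre. The longest tracts of the ISs in Tbc1d5 and near Nmi lay farther out, at 536.5 and 661 bp.

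Most shMcm6-only ISs were intergenic, as were most shMcm6 ISs. There were 17479 intergenic ISs (64.7%, interval 64.1% to 65.3%), 7404 in introns (27.4%), 916 in exons (3.39%) and 1214 within 1 kb of a TSS of a protein-coding transcript (4.49%, 4.25% to 4.75%). Of all autosomal shMcm6 ISs 62.9% were intergenic and 4.39% at promoters, and the share that was shMcm6-only was 24.5% of intergenic, 24.3% of promoter and 22.9% of intronic ISs, but lower, at 18.8% (17.7% to 19.9%), of exonic ISs. ISs in all 4 lists had 55.5% intergenic and 7.57% at promoters, and the promoter share of shMcm6-only ISs was the lower on 18 of 19 autosomes. Against ISs of both hairpin lists the promoter share was instead the higher (3.38%), on 19 of 19 autosomes, and the intergenic share similar (64.0%), higher on 12 of 19. The median distance to a TSS was 70114 bp, against 58434 bp in both hairpin lists, 32563 bp in all 4 and 48589 bp in shLacZ-only ISs. The median GC content was 43.6% (quartiles 38.2% and 48.8%), against 47.5% in all 4 lists and 43.7% in both hairpin lists. At promoters it was 53.2%, and only 15.4% of the promoter members held a purine tract, against 29.9% of the intergenic ones, while their median differences were 0.29 and 0.27.

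The share of shMcm6 ISs that were called only there was highest in gene deserts. It was 30.4% (interval 29.5% to 31.2%) of the 11528 with no protein-coding gene within 500 kb, 26.6% with 1 to 4 genes, 21.5% with 5 to 9, 20.8% with 10 to 19 and 20.8% with 20 or more. The share with no gene was higher than that with 10 genes or more on 18 of 19 autosomes. Among shLacZ ISs, the share called only with the control hairpin went slightly the other way, from 10.6% with no gene to 12.4% with 20 or more. Within genes the share was 21.4% where the host gene was under 50 kb and 26.2% (25.2% to 27.3%) where it was 500 kb or longer. By chromosome it ran from 21.4% on chromosome 15 to 27.0% on chromosome 1. On chromosome X, outside the set, 881 of 2138 ISs (41.2%) overlapped no other list. The set held 11.3 ISs per Mb of autosomal sequence.

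**Figure D4:**
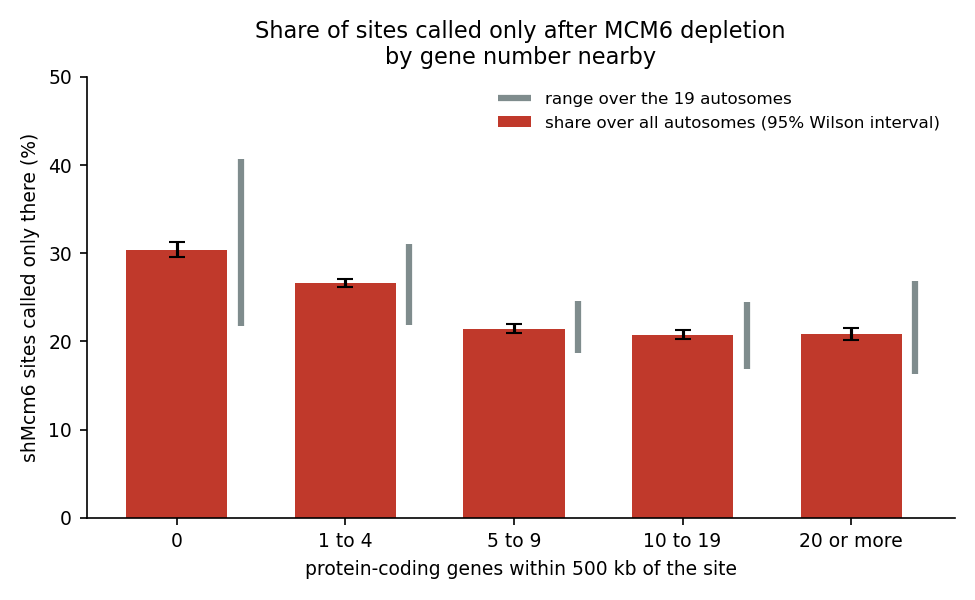
Percentage of autosomal shMcm6 ISs called only there (bars, 95% Wilson interval) by the number of protein-coding genes within 500 kb, with the range over the 19 autosomes as grey lines. The bars go from 30.4% with no gene to 20.8% with 20 or more, and the grey ranges overlap.

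Most shMcm6-only ISs lay within 50 kb of an shLacZ IS, and most (63.6%) were direct neighbours of another shMcm6-only IS. How often this would occur by chance was not tested. The nearest shLacZ IS was at a median of 13312 bp, and 12000 of them (44.4%) were within 10 kb of an shLacZ IS and 23444 (86.8%) within 50 kb. In all 9829 (36.4%) had no other shMcm6-only IS as direct neighbour along the chromosome when the ISs of all 4 lists were ordered, and 17184 lay in runs of 2 or more with no other IS between them. Runs of 5 or more held 3339, of which 70.6% were intergenic, with a median of 2 genes within 500 kb against 6 for those standing alone. Gain was smaller in runs: the median difference was 0.22 in runs of 5 or more and 0.32 for single ISs. The longest run had 19 ISs over 404 kb at chr8:50803792-51207556, 197 kb from the nearest protein-coding gene. Its ISs had 48 to 276 shLacZ reads (median 94) and 72 to 300 shMcm6 reads (median 118), with differences from -0.37 to 0.86, and 3 were at least 1.5-fold higher. The second had 15 ISs over 275.1 kb at chr5:81094981-81370102, 79.1 kb from Lphn3, a latrophilin adhesion receptor gene, none with a purine tract and 11 with a G4 motif. The third had 14 ISs over 500 kb at chr8:29394320-29894705, reaching into Unc5d, a netrin receptor gene, with a median difference of 0.04.

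Ranked by number, the genes with most shMcm6-only ISs all spanned more than 1000 kb, and such a count follows gene length. Ptprd, a receptor tyrosine phosphatase of synapses, spans 2271 kb and held 45 of 116 shMcm6 ISs (38.8%), with differences from -0.15 to 0.95 and a median of 0.37. Lrp1b, a member of the LDL receptor family, had 37 of 83 (44.6%), Cntnap2, a neurexin-related protein, 36 of 115 (31.3%) and Lrrc4c, a netrin-G ligand, 28 of 60 (46.7%). Pcdh15, a protocadherin of hair cells, had 27 of 89, Gpc5, a glypican, 26 of 118, the cadherin Cdh13 23 of 61, Astn2 22 of 47 and Macrod2 21 of 53. Over all protein-coding genes 22.4% of the shMcm6 ISs in gene bodies were shMcm6-only. Gm20388 (45 of 268, 16.8%) and Fgfr2 (40 of 131) also ranked among the 12, but their annotated spans in this build, 4435 and 3009 kb, run across other genes. Per length, among genes of at least 100 kb, the densest were Cdh22, another cadherin, with 6.49 per 100 kb (8 of 15), Rnf144b with 5.59 (7 of 7), Kif21a, a kinesin, with 5.14 (6 of 7) and Gna14, a G protein subunit, with 5.14 (9 of 22). Wwc1, Ndst3, Eltd1 and 2010300C02Rik followed, with 4.61 to 4.93 per 100 kb. In Eltd1 4 of 5 were at least 1.5-fold higher, whereas in Wwc1 0 of 7 were.

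Lists of genes gave the following counts, with the share over all gene bodies, 22.4%, for comparison. Of 26 large genes linked to common fragile sites, which break when replication is slowed, 25 were annotated and 24 held shMcm6-only ISs, 339 of 1221 shMcm6 ISs (27.8%, interval 25.3% to 30.3%). Among all host genes of 500 kb or longer the share was 26.2% (25.2% to 27.3%), which overlaps that interval. Wwox, a large tumour suppressor gene, had 7 of 57 (12.3%) and Exoc4, of the exocyst, 1 of 33, whereas Auts2, a neurodevelopmental gene, had 17 of 42 and Fhit, a tumour suppressor, 12 of 40. Besides Ptprd, Cntnap2, Lrp1b and Macrod2, given above, Ctnna3 had 20 of 73, Prkg1 16 of 41, Dlg2 15 of 94, Magi2 14 of 67 and Csmd3 13 of 95. Park2 had 9, Dab1, Immp2l and Lsamp 8 each, Nbea and Pard3b 6 each, Large 5, Esrrg and Rad51l1 3 each and Csmd1 2. Of the 339, 67 were at least 1.5-fold higher, a share near the 18.1% over all shMcm6-only ISs. All 28 axon guidance and adhesion genes held at least 1, in total 233 of 720 (32.4%, 29.0% to 35.9%). Many of these genes are long too, and the share in all host genes of 500 kb or longer was 26.2%. The part of gene length and of the number of genes nearby in this share was not tested. Cdh12, a cadherin, had 10 of 17, but Epha5, an ephrin receptor, had 1 of 12. Nrxn3 had 21 of 73, Cdh18 16 of 46, Epha6 14 of 57, Pcdh9 12 of 44, Cntn5 11 of 43 and Epha3 9 of 16. Cntn4, Dcc and Sema3a had 10 each, Slit3 9, Ctnna2 8, Sema3e 7, Nlgn1 and Robo2 6 each, Slit2 5, and Ntng1 and Unc5c 4 each. Cdh9, Cdh10, Epha7, Robo1, Sema3d and Unc5d had 2 each and Sema3c 1. Of the 233, 37 were at least 1.5-fold higher, also near 18.1%. Among 25 B cell identity genes 11 held 20 of 80 (25%, 16.8% to 35.5%). These included Ebf1 with 5 of 15 and Bach2 with 4 of 11, both transcription factors of B cells, and Cd40, the receptor engaged in the culture, with its single IS. Bcl11a and Mef2c had 2 each, and Ets1, Ikzf3, Irf8, Prdm1, Runx1 and Tcf3 had 1 each, while Pax5 and Myc had none. None of the 20 was at least 1.5-fold higher, against 18.1% of all shMcm6-only ISs. The 28 licensing and helicase genes held few shMcm6 ISs in all, and 6 of those 21 were shMcm6-only (28.6%, 13.8% to 49.96%). They lay in Orc2 (3 of 3) and Mtbp (3 of 6), with medians of -0.09 and -0.08, and the body of Mcm6 itself held no shMcm6 IS. Olfactory and vomeronasal receptor genes, 1433 in number, held 35 of 133 (26.3%, 19.6% to 34.4%).

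The Rif1KO against WT table came from the same libraries as the WT and Rif1KO lists, which the rule used to leave out ISs, so its values near the set are a description. Its 23971 ISs within 50 kb of an shMcm6-only IS had a median log2 difference of 0.02 (quartiles -0.15 and 0.20), and the 14983 farther away 0.01 (-0.17 and 0.18). The median was the higher near shMcm6-only ISs on 10 of 19 autosomes. Without chromosomes 10, 15 and 16 the median near the set was 0.011, with a 95% interval of 0.0067 to 0.0143.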

How the data were processed

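SNS-seq was analysed in 8 libraries of CH12 cells, 2 per group, grouped by their titles. According to the study's methods and the submitters' processing notes, the authors trimmed 50-base single-end reads with Trim Galore 0.6.4 (cutadapt 2.6), aligned them to mm9 with Bowtie 1.2.3 keeping unique hits, called peaks per replicate with MACS2 without input, kept peaks shared by replicates that clustered with others, and merged ISs per contrast with bedtools. The deposited tables give log2 RPM, pooled over replicates, with linear values summing to 1000000 per column. Other deposited columns, neither counts nor densities, name the peaks of an IS. The deposited class of fold change was not used, and columns of other samples numbered 0. All values were whole multiples of 1 read (tolerance 0.01 reads), so reads were recovered and used for counting errors. Medians per IS were 141 (shLacZ), 160 (shMcm6), 73 (WT) and 82 (Rif1KO) reads.

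With 1 pooled value per condition no test across replicates was made. A fold change is the difference of log2 RPM, and 1.5-fold was the threshold of the study. Shares carry 95% Wilson intervals, medians the number of the 19 autosomes with the same order. Sequence came from NCBIM37, which is mm9, and genes from its GENCODE annotation. Named ISs were the 6 densest by log2 RPM after MCM6 depletion, the 6 highest and 6 lowest in fold change at or above the median density, and the 3 longest runs. Named genes were the 12 with most ISs, the 8 with most per length and genes of the lists with such an IS, the receptor genes as a family only; some genes and sequences that this rule selects are not reported here. The set and the lists were chosen with earlier results of these data known, and motif tracts and positions after their values were seen. Python 3.11.15, NumPy 2.4.6 and pandas 2.3.3 were used, and scripts were tested on simulated data.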

Additional observations from a re-analysis of the deposited data

How the results depend on the processing

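No paired analysis was possible because both replicates of a condition were pooled before deposit, so the replicate block and leaving out a replicate were not run. Of 38 alternatives, 10 stayed inside the 95% interval of the value reported and 28 moved outside it. The median log2 difference of the set kept its sign, but centring turned that of ISs in both hairpin lists from -0.02 to 0.08, and the order of the G4 shares against ISs of both hairpin lists and of all 4 lists turned in a fixed window. The alternatives on tracts and motif side were chosen after seeing the data. The share of shMcm6 ISs called only there was 27.9% with a reciprocal overlap of 50%, 22.8% when ISs within 500 bp counted as shared and 24.1% with chromosome X. The median log2 difference was 0.21 without ISs under the lower quartile of density in the table (2.295 log2 RPM, mean of both conditions), 0.21 as log2(RPM + 1) and 0.36 with ISs of all 4 lists centred. The share at least 1.5-fold higher was then 15.4%, 11.1% and 26.0%, and 4.19% at 2-fold. Promoter ISs were 2.95% within 500 bp of a TSS and 6.41% within 2 kb, and intergenic ISs 62.4% against all annotated genes. GC content was 43.5% under the 500 bp rule. G4 motifs were in 74.7% with loops up to 12 bases and 54.6% in a fixed window. ISs within 5 kb and 50 kb of an shLacZ IS were 29.9% and 86.8%. The median Rif1KO against WT difference near the set was 0.011 without chromosomes 10, 15 and 16. Purine tracts of at least 50 bases were in 20.1%, and those of 30 bases in 28.6% of fixed windows. Among ISs at least 1.5-fold higher, tracts of 50 bases were in 45.7%, and tracts of 30 bases in 55.7% where no control peak number was missing. The G4 motif was on the 5′ side at 73.0% of these at a width of 400 bp to under 600 bp, 73.6% without a tract in the IS and 80% without one within 500 bp, and at 91.2% and 91.6% of the ISs under 1.5-fold without a tract in the IS and within 500 bp. For these values the cause was not tested. Counting depth of 86 and 118 reads per IS limits single ISs to a median SE of 0.21.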
